A study of Mus musculus with 5 samples.

Results

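Genes that mark the stem cells of the intestinal crypt were examined in tumours of Apc1638N mice and in normal intestine. The genes were fixed by name and fall into 2 classes. The crypt-base columnar class holds Lgr5, Ascl2, Smoc2, Tnfrsf19, Prom1, Msi1 and Cdca7. The reserve class holds Bmi1, Hopx and Lrig1. All 10 genes were on the array, with 20 probe sets that the platform annotation assigns to them, out of 22626 probe sets and 12393 genes. Lgr5, Prom1 and Cdca7 had 1 probe set and the other 7 genes had several.

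Expression was measured on 5 Affymetrix arrays. Of these, 3 came from intestinal tumours of Apc1638N mice on the C57Bl6/J background (tumours 16, 18 and 2) and 2 from normal intestinal epithelial cells of C57Bl6/J animals without the Apc mutation (wild types 36 and 62). Both groups were male and 8 months old. Apc1638N mice carry a truncating germline mutation in Apc, in every tissue, and their tumours arise mostly in the small intestine. RNA of all 5 samples came from cells cut out by laser capture microdissection. The share of crypt to villus, the gut region and any pooling of animals are not stated in the labels. Whether each array stands for a separate animal is not stated either, and p-values here measure only how far these samples spread, which may be technical.

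Crypt-base columnar cells are slender dividing cells wedged between Paneth cells at the bottom of the crypt, and they renew the epithelium through a zone of fast-dividing daughter cells. They depend on Wnt signals, which R-spondin proteins strengthen through the receptor Lgr5, and Apc restrains the same pathway inside the cell. Reserve cells are described as slower cycling cells that sit above the crypt base and can replace lost columnar cells, although their markers are also found in other crypt cells.

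The promoters of members that were called below, and the only promoter window with a motif match, are printed here because Wnt signals reach genes through TCF/LEF factors. Windows from RefSeq (build GRCm38.p6) were used for 7 of the 10 genes, 10 windows in all, and the 250 bases before each start site were searched. The windows of Lgr5, Smoc2 and Msi1 were not used here. The TCF/LEF words searched on both strands were the word AACAAAG, the word ATCAAAG, the word TACAAAG and the word TTCAAAG, and the E-box word, bound by basic helix-loop-helix factors of the kind Ascl2 belongs to, was CAGCTG. A TCF/LEF word stood in 1 of the 10 windows, against 14.8% of 32851 windows in the table, and the E-box in 1 of 10, against 13.0%. Both matches lay in the same Tnfrsf19 window, the TCF/LEF word ATCAAAG starting at position -202 and the E-box at -10 from the start site, without overlap. A match is a description of letters and not of binding. All 5 windows lie on the minus strand and are written 5′ to 3′ with the matches in capitals. They are Ascl2 at chr7:142969265-142969514, Tnfrsf19 at chr14:61037988-61038237, Prom1 start sites a and b at chr5:44101737-44101986 and chr5:44094769-44095018, and Lrig1 at chr6:94700146-94700395.
Ascl2: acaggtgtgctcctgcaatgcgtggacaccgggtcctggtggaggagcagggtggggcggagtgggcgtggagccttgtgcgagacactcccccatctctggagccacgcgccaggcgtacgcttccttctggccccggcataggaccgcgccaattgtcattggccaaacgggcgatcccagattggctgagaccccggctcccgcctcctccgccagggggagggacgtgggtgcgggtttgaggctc
Tnfrsf19: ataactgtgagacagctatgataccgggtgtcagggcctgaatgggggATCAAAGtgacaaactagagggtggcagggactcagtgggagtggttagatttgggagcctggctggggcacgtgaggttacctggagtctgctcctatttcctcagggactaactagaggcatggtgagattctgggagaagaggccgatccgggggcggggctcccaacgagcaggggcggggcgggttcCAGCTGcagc
Prom1, start site a: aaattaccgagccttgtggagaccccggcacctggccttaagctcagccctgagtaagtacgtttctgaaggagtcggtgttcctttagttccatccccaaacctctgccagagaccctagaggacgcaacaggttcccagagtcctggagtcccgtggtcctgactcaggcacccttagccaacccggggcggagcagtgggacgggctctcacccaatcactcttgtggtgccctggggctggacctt
Prom1, start site b: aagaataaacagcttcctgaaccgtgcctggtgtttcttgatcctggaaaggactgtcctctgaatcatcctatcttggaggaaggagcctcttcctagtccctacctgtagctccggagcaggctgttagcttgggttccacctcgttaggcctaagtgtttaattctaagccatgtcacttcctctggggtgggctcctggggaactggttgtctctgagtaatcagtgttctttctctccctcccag
Lrig1: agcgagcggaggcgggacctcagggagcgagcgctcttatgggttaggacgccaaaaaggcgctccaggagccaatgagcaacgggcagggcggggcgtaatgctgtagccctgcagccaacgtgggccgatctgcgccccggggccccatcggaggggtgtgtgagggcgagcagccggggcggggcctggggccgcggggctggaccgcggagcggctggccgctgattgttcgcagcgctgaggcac

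Most columnar markers had higher values in every tumour than in wild type, while the reserve markers were split. Of the 20 probe sets, 5 were called higher in tumours by limma at an adjusted p of 0.05 and 0 lower, where 9.58% of all probe sets were called higher and 8.72% lower. At an unadjusted p under 0.05 in limma the member counts were 10 higher and 0 lower, where 7584 of all 22626 probe sets passed in either direction. The 5 called probe sets belong to Ascl2 (2 of its 3), Prom1, Msi1 (1 of 2) and Lrig1 (1 of 3). All 3 tumours lay above both wild-type arrays in 12 of the 20, or 60%, against 25.3% of all probe sets, and all lay below in 1 of 20, against 22.5%. Calls depended on single arrays. Without tumour 16, or without either wild-type array, 0 member probe sets were called, and without tumours 18 and 2 in turn there were 5 and 3. The count over all probe sets, 4139 with every array, was 927 without tumour 16, 1422 without tumour 18, 3424 without tumour 2, 686 without wild type 36 and 0 without wild type 62.

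**Figure D1:**
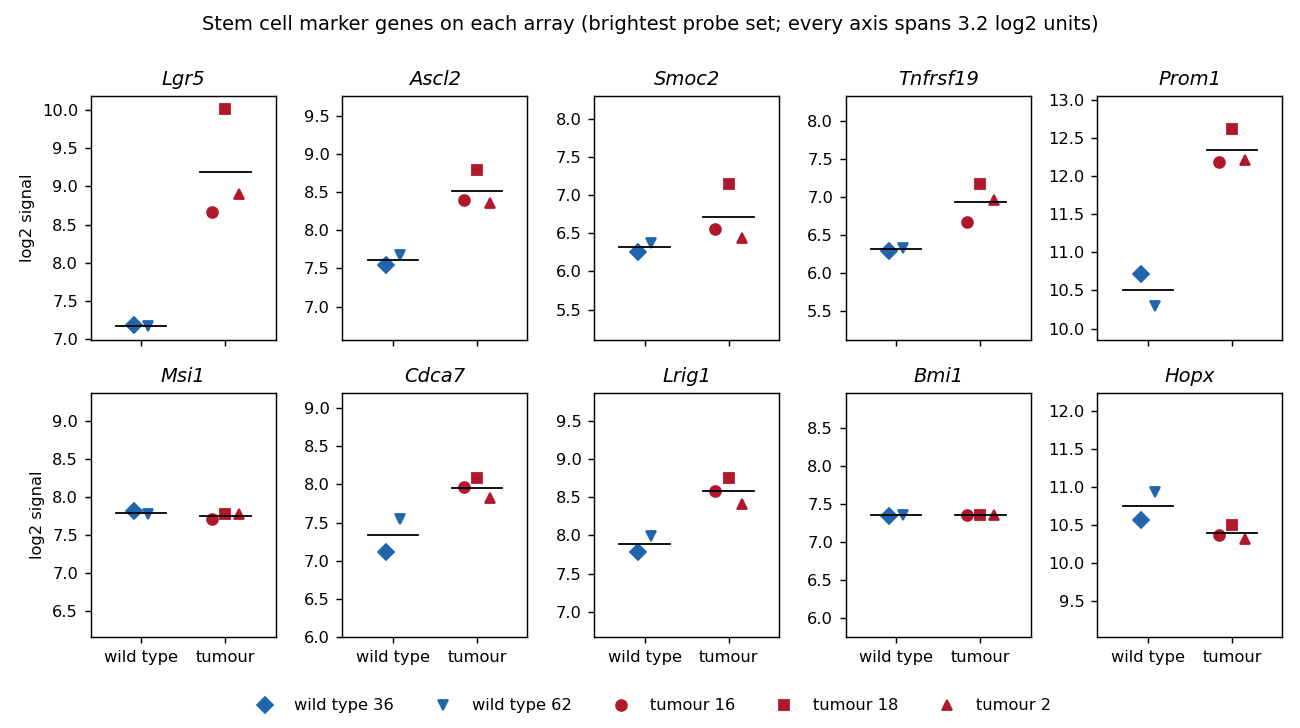
Log2 signal (vertical axis) of the brightest probe set of each marker gene on the 2 wild-type arrays (blue) and 3 tumour arrays (red), with group means as lines. Every panel spans the same number of log2 units. Tumours lie above wild type for Lgr5, Ascl2, Smoc2, Tnfrsf19, Prom1, Cdca7 and Lrig1, below it for Hopx, and overlap it for Msi1 and Bmi1.

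Lgr5, the R-spondin receptor that defines columnar stem cells, had the largest difference of the members. Its log2 signal was 8.67, 10.01 and 8.90 in tumours 16, 18 and 2 and 7.18 and 7.17 in wild types 36 and 62. The wild-type arrays were almost equal, all tumours were higher, and tumour 18 stood well above the other two. The difference was 2.02 (SE 0.45, 95% interval 0.78 to 3.25), which is 4.05-fold, with an adjusted p of 0.0532 in limma over all probe sets, just outside the threshold. When 1 probe set per gene was tested, the adjusted p was 0.0467. Lgr5 passed in 6 of the 8 alternatives that kept every array and tested single probe sets, and also where the probe sets of each gene were averaged (adjusted p = 0.0409 in limma over genes). Over those 8 and the 5 that left out an array, its adjusted p ran from 0.0301 to 0.21. Without tumour 18 the difference was 1.61 and passed (adjusted p = 0.0326 in limma).

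Ascl2, a transcription factor that columnar cells need for their fate and a target of Wnt signalling, rose. Its brightest probe set read 8.40, 8.79 and 8.35 in tumours 16, 18 and 2 and 7.54 and 7.68 in wild types 36 and 62, with no overlap. The rise was 0.91 (SE 0.16), or 1.88-fold, with an adjusted p of 0.0322 in limma. A dimmer probe set read 6.26, 6.47 and 6.12 against 4.99 and 5.19, and rose by 1.20 (SE 0.13, adjusted p = 0.0130 in limma). Its wild-type values lay below the 25th percentile of their arrays, so no fold is given. The third was below that percentile on all 5 arrays and differed by 0.46 without passing (adjusted p = 0.0576 in limma). All 3 probe sets of Ascl2 had every tumour above both wild types. The brightest kept its call without tumour 18 (adjusted p = 0.0391 in limma) and lost it without tumour 16, tumour 2, wild type 36 or wild type 62 (0.104, 0.0572, 0.154 and 0.137).

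Prom1, which encodes the membrane glycoprotein CD133 of crypt-base and dividing crypt cells, was the brightest columnar marker and rose. The values were 12.18, 12.62 and 12.22 in tumours 16, 18 and 2 against 10.72 and 10.29 in wild types 36 and 62. Every tumour lay well above both wild types. The rise of 1.83 (SE 0.21, 95% interval 1.27 to 2.39) is 3.56-fold, with an adjusted p of 0.0136 in limma. Prom1 kept its call in the 7 alternatives that kept every array and tested its probe set, and where probe sets were averaged (adjusted p = 0.00959 in limma over genes). The call also held without tumour 18 or tumour 2 and was lost without tumour 16, wild type 36 or wild type 62 (adjusted p = 0.0631, 0.0626 and 0.0852 in limma). The probe set is of a type that can match several transcripts of the gene, so it drops out where such probe sets are left out.

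Msi1, an RNA-binding protein that represses translation of Numb, gave unlike readings from its probe sets. The dimmer one read 6.22, 6.22 and 6.06 in tumours 16, 18 and 2 and 4.53 and 5.29 in wild types 36 and 62. All tumours were higher, and the rise was 1.26 (SE 0.25, adjusted p = 0.0396 in limma). Both wild-type values lay below the 25th percentile of their arrays, and the call was lost whenever any single array was left out (adjusted p from 0.0582 to 0.146). The brighter probe set read 7.71, 7.78 and 7.78 against 7.81 and 7.78, with the same value on 3 arrays of both groups. It differed by -0.04 (95% interval -0.14 to 0.07), and the groups overlapped. The mean of the probe sets rose by 0.61 (adjusted p = 0.0307 in limma over genes).

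Tnfrsf19, a receptor of the tumour necrosis factor family known as Troy and a Wnt target, was higher in 2 of 3 probe sets without passing. The brightest read 6.67, 7.17 and 6.96 in tumours 16, 18 and 2 and 6.29 and 6.33 in wild types 36 and 62. It differed by 0.62 (SE 0.16, adjusted p = 0.0724 in limma), with no overlap. Another read 6.17, 7.11 and 6.72 against 5.63 and 5.67 and differed by 1.02 (SE 0.30, adjusted p = 0.0938 in limma). Both wild-type values of that probe set lay below the 25th percentile of their arrays. The remaining one differed by -0.0033 and overlapped (95% interval -0.32 to 0.31). The order of the tumours, with 18 highest and 16 lowest, was shared by the former pair of probe sets.

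Smoc2, a secreted calcium-binding matrix protein found in columnar cells and also in fibroblasts, did not pass. Its brightest probe set read 6.56, 7.15 and 6.44 in tumours 16, 18 and 2 and 6.26 and 6.37 in wild types 36 and 62. Tumour 2 lay just above the higher wild type, and tumour 18 carried most of the difference of 0.40 (95% interval -0.27 to 1.07, adjusted p = 0.338 in limma). Without tumour 18 the difference was 0.18. The other probe set read 6.29, 7.24 and 6.25 against 5.87 and 5.81 and differed by 0.75 (adjusted p = 0.236 in limma), or by 0.43 without tumour 18, where it passed (adjusted p = 0.0423). Both of its wild-type values lay below the 25th percentile of their arrays.

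Cdca7, a nuclear zinc finger protein that works with the chromatin remodeller Hells in dividing cells, read 7.97, 8.08 and 7.82 in tumours 16, 18 and 2. Wild types 36 and 62 read 7.11 and 7.55. The tumours were higher without overlap, while the wild-type arrays lay further apart than the 3 tumours did. The difference of 0.63 (SE 0.16) did not pass (adjusted p = 0.0731 in limma). It passed in 3 of the 8 alternatives that kept every array and tested single probe sets, in 0 of the 5 that left one out, and not where probe sets were averaged (adjusted p = 0.0573 in limma over genes).

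Among the reserve genes, Lrig1, a membrane protein that dampens ErbB receptor signalling, rose in its brightest probe set. That probe set read 8.58, 8.75 and 8.42 in tumours 16, 18 and 2 and 7.78 and 7.99 in wild types 36 and 62. The groups did not overlap, and the rise of 0.70 (SE 0.13, 1.62-fold) had an adjusted p of 0.0341 in limma. The call remained without tumour 2 (0.0445) and was lost without tumour 16, tumour 18, wild type 36 or wild type 62 (adjusted p = 0.128, 0.0889, 0.151 and 0.115). The other probe sets of Lrig1 differed by -0.02 and 0.22, and both overlapped between groups (adjusted p = 0.812 and 0.349 in limma). The mean over all 3 differed by 0.30 without passing (adjusted p = 0.0634 in limma over genes). The called probe set of Lrig1 is of a type that can match several transcripts. With such probe sets left out, Lrig1 differed by -0.016 (adjusted p = 0.807 in limma).

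Bmi1, a subunit of Polycomb repressive complex 1, gave no call. Its brighter probe set held exactly the same value, 7.36, in the 3 tumours and in wild type 62, and read 7.35 in wild type 36. The difference was 0.0045 (95% interval -0.07 to 0.08). Values shared between arrays occurred in 42.8% of all probe sets and in 5 of the 20 member probe sets, namely both of Bmi1, a pair of Lrig1 and the brighter of Msi1. The other Bmi1 probe set ranged from 5.94 to 6.29, with 1 value shared by 3 arrays, and differed by -0.16 (95% interval -0.43 to 0.10). It lay below the 25th percentile on 4 of the 5 arrays.

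Hopx, a small homeodomain protein that marks reserve cells and is also made by differentiated epithelium, was bright in both groups. Its brightest probe set read 10.37, 10.51 and 10.32 in tumours 16, 18 and 2 and 10.57 and 10.94 in wild types 36 and 62. All tumours were lower, tumour 18 only slightly, and the difference of -0.36 (95% interval -0.73 to 0.01) did not pass (adjusted p = 0.157 in limma). The other probe set differed by 0.08 and overlapped (95% interval -0.16 to 0.32).

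**Figure D2:**
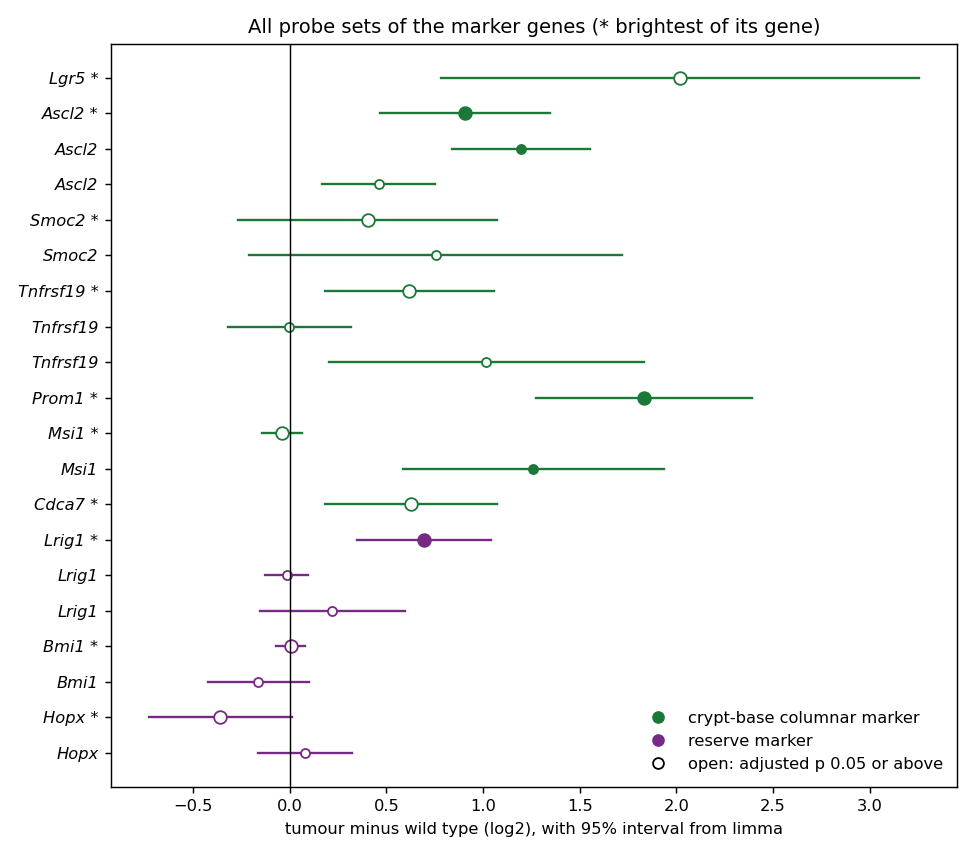
Tumour minus wild type (log2, horizontal axis) for all 20 probe sets, with 95% intervals from limma; filled points passed an adjusted p of 0.05. Green marks the columnar class and purple the reserve class. The called probe sets run from 0.70 for Lrig1 to 1.83 for Prom1, and probe sets of Msi1, Tnfrsf19 and Lrig1 differ within a gene.

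The classes were then compared through the brightest probe set of each gene. In the columnar class 2 of 7 genes (Ascl2 and Prom1) were called higher and 0 lower, and in the reserve class 1 of 3 (Lrig1) higher and 0 lower. Over all genes 10.5% were called higher and 9.92% lower. At an unadjusted p under 0.05 in limma, 6 of the 10 members were higher and 0 lower. With 1 probe set per gene fitted, 4505 of 12393 genes passed in either direction. Unadjusted counts of the lists below are to be read beside this share. The median difference was 0.63 in the columnar class (range -0.04 to 2.02) and 0.0045 in the reserve class (range -0.36 to 0.70), beside 0.0040 over all genes. By array, the columnar median stood above the reserve median by 0.63, 0.85 and 0.64 in tumours 16, 18 and 2. In wild types 36 and 62 the gap was 0.09 and -0.09, all measured from the wild-type mean of each gene. In all 3 tumours the reserve median was the value of the brighter Bmi1 probe set, which was tied at 0.0045 across them. There the class difference is thus the columnar median minus a constant. Of the 21 pairs of a columnar with a reserve gene, the columnar gene differed more upward in 16, each without overlap between the groups. No share without overlap was computed for pairs of other genes. For single probe sets it was 25.3% of all with tumours higher and 22.5% with tumours lower. In the remaining 5 pairs the reserve gene had the higher difference. These were Lrig1 with Smoc2, Tnfrsf19, Msi1 and Cdca7, and Bmi1 with Msi1, and only Lrig1 with Msi1 was free of overlap. The pairs share genes and arrays and the members were chosen with earlier results known, so no p is given for the class difference, and with 5 arrays an exact permutation test of a single value cannot go below 0.1.

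Members of the reserve class lay apart. Lrig1 differed by 0.70, more than the columnar median, while Bmi1 and Hopx lay at or below 0. When the probe sets of a gene were averaged, Lgr5, Ascl2, Prom1 and Msi1 were called and 0 of the 3 reserve genes were. Dropping probe sets that can match several transcripts removed Prom1 and Hopx, and then Ascl2 was the 1 gene called among the 8 remaining.

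Tumour 18 was the highest of the 3 tumours in 14 of 20 member probe sets (70%) and in 8 of 10 brightest ones, against 31.4% of all probe sets. Fibroblast markers were also highest in tumour 18, in 7 of 7. The median of those 7 genes stood 1.68, 2.68 and 0.59 above the wild-type mean in tumours 16, 18 and 2. Their mean log2 level ran from 7.83 to 9.33 in tumours and from 6.94 to 7.24 in wild types. Decorin (Dcn, 9.71, 10.41 and 8.82 against 7.28 and 6.83) was called higher, as 1 of 7, where 10.5% of all genes were. At an unadjusted p under 0.05 in limma, 4 of the 7 were higher and 0 lower. Tumour 16 had more fibroblast signal than tumour 2. In brightest probe sets, Ascl2, Smoc2, Cdca7, Lrig1 and Hopx were also higher in tumour 16 than in tumour 2. Lgr5, Tnfrsf19, Prom1 and Msi1 were lower in tumour 16, and Bmi1 was equal. The part of fibroblast RNA in the values of Lgr5, Smoc2 and the other members was not tested. Without tumour 18, the brightest probe sets of Lgr5, Ascl2 and Prom1 passed, Lrig1 lost its call (adjusted p = 0.0889 in limma), and Smoc2 differed by 0.18.

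**Figure D3:**
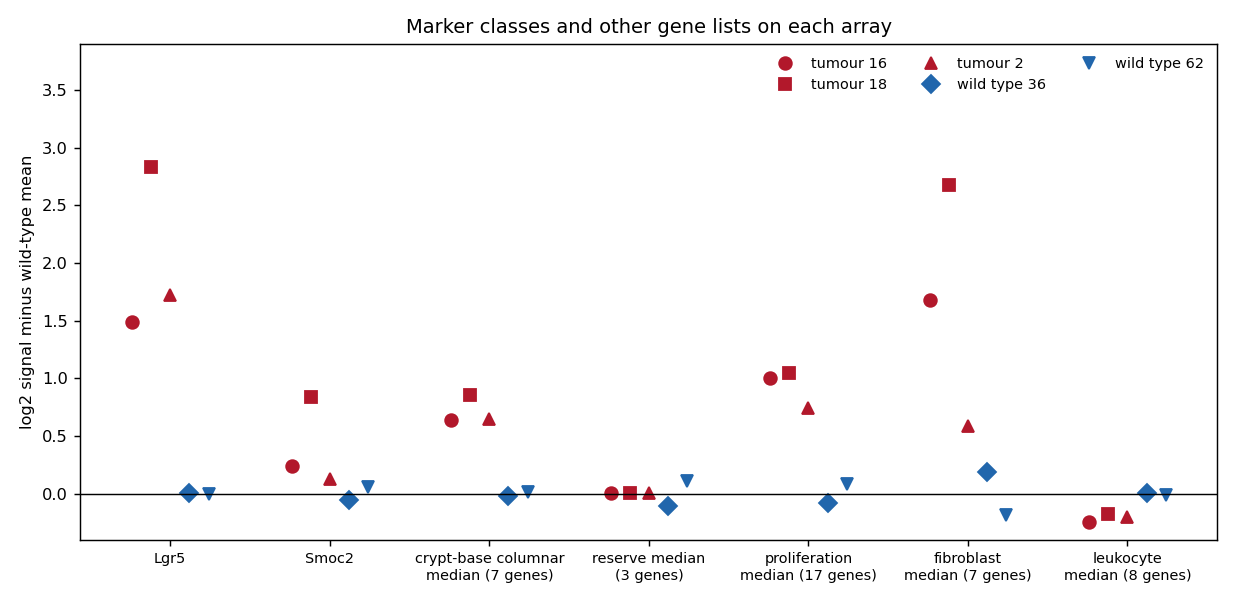
Log2 signal minus the wild-type mean (vertical axis) on each array for Lgr5, Smoc2, the median of each marker class and the medians of the proliferation, fibroblast and leukocyte lists. Tumour 18 is highest for Lgr5 (2.84), Smoc2 (0.84) and the fibroblast median (2.68). The reserve median is at 0.0045 in all 3 tumours, the tied value of Bmi1.

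Markers of other cells gave these values. Over all genes 10.5% were called higher and 9.92% lower, and counts of 1 or 2 in lists this short lie near these shares. Of 7 epithelial markers, Krt18 rose by 2.44, Vil1 fell by 1.26 and 5 were not called, (2 higher and 4 lower at an unadjusted p under 0.05 in limma). Their mean level was 11.1 to 11.7 in tumours and 11.5 to 11.6 in wild types. Of 8 absorptive enterocyte markers, 5 fell and 0 rose (6 and 0 at an unadjusted p under 0.05), with a median of -3.15, and Slc2a2, Lct, Slc5a1 and Anpep changed most (-5.41, -4.41, -4.38 and -3.24). Of 5 Paneth cell markers, 4 rose, namely Mmp7 (3.71), Pla2g2f (2.24), Lyz1 (1.13) and Nupr1 (1.08). Goblet cell markers had 1 of 6 higher (Spink4, 1.67) and 1 lower (Fcgbp, -1.25), and tuft cell markers 1 of 5 higher (Avil, 1.20) and 1 lower (Ltc4s, -0.29). Of 7 enteroendocrine markers, 3 fell (Sst, Cck and Sct, by -0.97, -0.87 and -0.65). At an unadjusted p under 0.05 in limma, 5 Paneth cell markers were higher and 0 lower. Goblet cell markers had 2 higher and 1 lower at that threshold, tuft cell markers 1 and 3, and enteroendocrine markers 0 and 6. Acta2 rose by 1.22 as 1 of 5 smooth muscle markers (2 higher and 0 lower at an unadjusted p under 0.05 in limma). Ptprc and Cd3g fell by 1.94 and 1.41 as 2 of 8 leukocyte markers (4 lower and 1 higher at an unadjusted p under 0.05 in limma). The 1 higher was Lyz2, at 1.67 without passing (adjusted p = 0.0569 in limma). Over the alternatives that kept every array, 0 to 1 leukocyte markers were called higher and 1 to 4 lower. In limma 0 of 5 endothelial and 0 of 3 glia and nerve markers were called (1 and 0 at an unadjusted p under 0.05), with Kdr and Eng at -0.00057 and -0.0031 and Sox10 and Gfap at 0.024 and -0.012. Counts in these lists fell when arrays were dropped. With tumour 16, 18 or 2 dropped, 4, 4 and 5 enterocyte markers fell, 2, 2 and 3 Paneth cell markers rose, and 0, 1 and 1 enteroendocrine markers fell. With wild type 36 dropped, 2 enterocyte markers fell, and 0 Paneth cell and 0 enteroendocrine markers were called. With wild type 62 dropped, 0 of the genes in these 3 lists were called. The decorin call was lost without tumour 16 or either wild type, and the Acta2 call when any array was dropped. Without wild type 36 or 62, 0 leukocyte markers were called. In bulk samples, fewer cells of a type and less RNA per cell cannot be told apart. Beta-actin signal at the 3′ end exceeded that at the 5′ end by 4.0 to 4.25 in tumours and by 2.51 to 3.32 in wild types, and its part in the members' values was not tested.

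Other genes of columnar cells were examined beside the members. Of 13 measured genes in that list, 9 rose and 0 fell (10 and 0 at an unadjusted p under 0.05 in limma), with a median of 0.85. Over all genes 10.5% were called higher and 9.92% lower. The listed genes Olfm4, Rgmb, Ephb2, Znrf3, Soat1, Gkn3 and Lgr4 were not analysed here. Nkd1, 1 of the 9, lay below the 25th percentile on all 5 arrays. Aqp4 differed by -0.44 with every tumour below both wild types, without passing (adjusted p = 0.166 in limma). The hyaluronan receptor Cd44 rose by 3.69 (SE 0.16), Phlda1 by 2.70 (SE 0.22), and the transcription factors Sox4 and Sox9 by 2.30 (SE 0.13) and 1.55 (SE 0.11). With tumour 16, 18 or 2 left out 5, 5 and 7 rose, and with wild type 36 or 62 left out 3 and 0. Of 8 other genes linked to reserve or quiescent crypt cells, 3 rose and 1 fell, or 0 and 0 without wild type 62. These were the secreted chaperone Clu (5.10, SE 0.25), Sox9, which stands in both lists, the keratin Krt19 (1.20, SE 0.25) and Txnip (-0.26, SE 0.05). Tert, the telomerase subunit, differed by 0.04 without a call. At an unadjusted p under 0.05 in limma, 4 of these 8 were higher and 2 lower. The listed genes Mex3a and Ly6a were not analysed here.

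Receptor genes of the pathway were examined too. Of 14 measured R-spondin, Lgr and Wnt receptor genes and their effectors, 0 rose and 1 fell (1 and 1 at an unadjusted p under 0.05 in limma), with a median of 0.0066. These counts lie near the shares over all genes, 10.5% higher and 9.92% lower. Rspo1, Lrp5, Dvl2 and Lef1 lay below the 25th percentile on all 5 arrays. Rspo3, Rspo4, Lgr4, Znrf3 and Tcf7 were not analysed here. The R-spondin gene Rspo2 fell by 0.17 (SE 0.04, adjusted p = 0.0473 in limma), a call lost when any array was left out. Lgr6, the relative of Lgr5, differed by 0.02 and beta-catenin (Ctnnb1) by -0.03.

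Partners of single members were examined in the same way. Over all genes 10.5% were called higher and 9.92% lower. Of 6 genes linked to Cdca7, 2 rose and 0 fell (4 and 0 at an unadjusted p under 0.05 in limma), the maintenance methyltransferase Dnmt1 by 1.31 (SE 0.15) and Myc by 1.11 (SE 0.15), while Hells itself differed by 0.46 and did not pass (adjusted p = 0.329). Without tumour 18 or either wild type 0 of these 6 were called. Among 8 relatives of Msi1 and Notch pathway genes, Numb, the membrane protein whose messenger Msi1 binds, fell by 1.90 (SE 0.24). Notch2 rose by 1.33 (SE 0.16), and 6 were not called (3 higher and 2 lower of the 8 at an unadjusted p under 0.05 in limma). In that list 0 genes were called when tumour 16, tumour 18, wild type 36 or wild type 62 was dropped. Msi2 differed by 0.29 (adjusted p = 0.0786 in limma). Of 10 Polycomb partners of Bmi1, 2 rose and 0 fell (4 and 1 at an unadjusted p under 0.05 in limma), namely Phc2 by 0.56 (SE 0.12) and Cbx2 by 0.29 (SE 0.05). Lrig2 and Lrig3, the relatives of Lrig1, were not analysed here. Of 5 growth factor receptor genes (Egfr, Erbb2, Erbb3, Erbb4 and Met), Erbb3 fell by 0.56 (SE 0.12) and 0 rose (1 and 0 at an unadjusted p under 0.05), and Egfr differed by -0.06. Counts in the Msi1, Polycomb and growth factor receptor lists lie near the shares over all genes. The Erbb3 call was lost when any array was dropped, and the Polycomb count was 1 without tumour 2 and 0 without any other array.

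**Figure D4:**
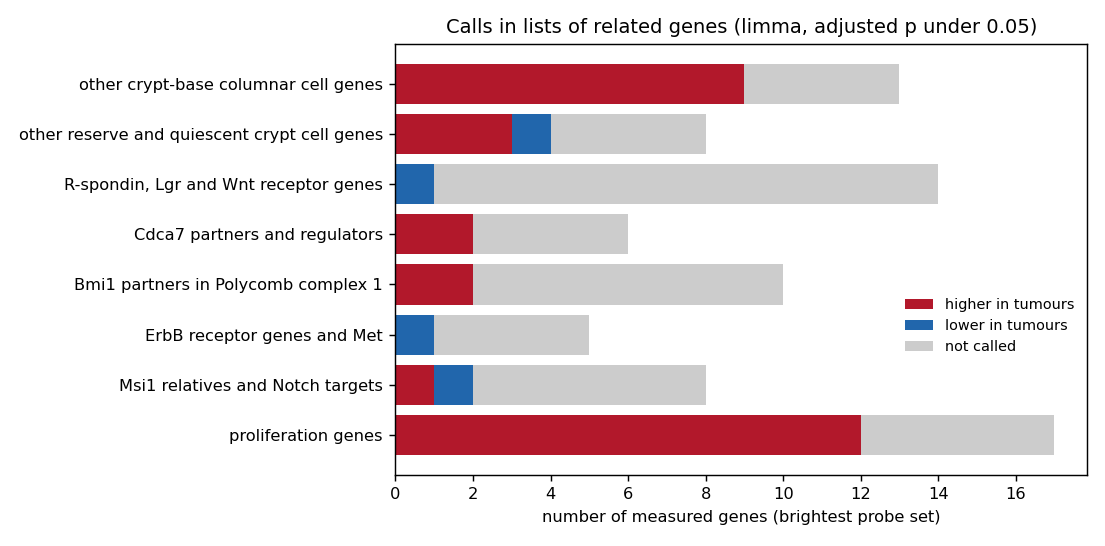
Number of measured genes (horizontal axis) called higher (red), called lower (blue) or not called (grey) in tumours in lists related to the marker genes. The columnar list (9 of 13) and the proliferation list (12 of 17) hold most of the rises, and the receptor list holds 0.

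Of 17 proliferation genes, 12 were called higher and 0 lower (16 and 0 at an unadjusted p under 0.05 in limma), with a median of 0.90. Over all genes 10.5% were called higher and 9.92% lower. Mcm7, part of the helicase that opens DNA for copying, rose by 2.44 (SE 0.20), Cdc20 by 2.13 (SE 0.11), Mki67 by 1.27 (SE 0.08) and Cdk1 by 1.18 (SE 0.15). With tumour 16, 18 or 2 left out 3, 5 and 10 rose, and with wild type 36 or 62 left out 2 and 0. By array the median stood at 1.0, 1.05 and 0.74 in tumours 16, 18 and 2. In brightest probe sets, Lgr5 and Prom1 differed by more than this median in each tumour and Ascl2 in tumour 18. In tumour 2 Ascl2 was level with the median (0.745 against 0.744). The other members exceeded the median in no tumour. Genes within the list were spread around its median, and Mcm7 and Cdc20 rose by more than any member. The part of cell division in the values of Cdca7, Prom1 and the other members was not tested.

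The genes whose profile over the 5 arrays lay nearest to that of Lgr5, by root mean square distance of centred log2 values, were Pla2g2a (0.07), Ifitm1 (0.15), Ddit4 (0.23), Lyz2 (0.23) and Clps (0.24). Pla2g2a, a secreted phospholipase, read 8.62, 9.85 and 8.80 in tumours 16, 18 and 2 and 7.23 and 7.17 in wild types 36 and 62. Like Lgr5 it was highest in tumour 18, a likeness that follows from choosing genes by profile. It did not pass (adjusted p = 0.0523 in limma). Ifitm1 differed by 1.91 and the macrophage lysozyme Lyz2 by 1.67 without passing, while Ddit4 and the pancreatic cofactor gene Clps rose by 2.07 and 2.43. Among the members, Prom1 was nearest to Lgr5 (0.34, rank 38 of 20379 probe sets) and Hopx farthest (1.24, rank 17451).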

How the data were processed

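The authors deposited log2 signals for 22690 probe sets on 5 arrays; the log2 scale follows from their range. Per the labels' protocols, column-purified, DNase-treated RNA was amplified by the Affymetrix scheme for small samples. The submitters' processing notes name affy; how signals were corrected, summarised and normalized is not given in the sources used here. Array medians lay between 6.81 and 6.87, so no further normalization was done. Tumour arrays correlated at 0.983 or more and the wild-type arrays at 0.990, against 0.909 to 0.937 between groups. After 64 control probe sets were set aside, 22626 were fitted with limma 3.58.1 in R 4.3.3 (two-sided moderated test of group, without covariates), adjusted by Benjamini-Hochberg over all of them, and a threshold of 0.05. Statmod 1.5.0 served the array weights. The fit had 3 residual and 1.19 prior degrees of freedom, and the number of arrays limits its precision. Intervals are 95% and use these degrees of freedom. GEO's platform annotation gave 1 symbol to 20380 probe sets, several to 691 and none to 1555, and only the first kind was named. The brightest probe set of a gene is that of highest mean over the 5 arrays. Folds are 2 to the power of the difference. No presence calls were used.

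The members, lists and tests were chosen with earlier results of these data known. The genes named are the 10 members, up to 4 called genes with the largest change in each other list (the 2 brightest where 0 were called), and the 5 genes nearest to Lgr5. Tert, Lgr6, Ctnnb1, Hells, Msi2, Egfr, Nkd1 and Aqp4 were named after their values were seen. Alternatives were quantile normalization, median centring, a filter at the 40th percentile of mean signal, trend and robust settings, array weights, 1 probe set per gene, averaged probe sets, removal of probe sets with shared targets (those whose ID ends in _s_at, _x_at or _a_at) or with tied values in a group, and leaving out each array. Without a wild-type array the lone one is assumed to vary like the tumours.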

Additional observations from a re-analysis of the deposited data

How the results depend on the processing

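Of 232 values of single member probe sets under 13 or fewer alternatives each, 188 kept their direction and their side of the threshold, 19 lost a call, 18 gained a call and 7 changed sign, and the cause was not tested. None of the sign changes touched a called probe set. The brighter Bmi1 probe set went to -0.023 under quantile normalization and -0.029 under median centring. With 1 array left out, the differences ran from -0.11 to 0.049 for the Tnfrsf19 probe set that overlapped, from -0.052 to 0.019 for the middle Lrig1 probe set and from -0.011 to 0.17 for the dimmer Hopx probe set. Called member probe sets numbered 5, and 9, 8, 2 and 9 under quantile normalization, median centring, shared targets left out and tied probe sets left out, or 0 to 5 with 1 array left out. Called member genes numbered 3, and 6, 5, 5, 1 and 6 under quantile normalization, median centring, the 40th percentile filter, shared targets left out and tied probe sets left out, or 0 to 3 with 1 array left out. Columnar genes called numbered 2, 5 under quantile normalization and with tied probe sets left out, 4 under median centring, the 40th percentile filter and the mean of probe sets, 1 with shared targets left out, and 0 to 3 with 1 array left out. Reserve genes called numbered 1, 0 with the mean of probe sets and with shared targets left out, and 0 to 1 with 1 array left out. The columnar median of 0.63 was 0.82 with shared targets left out and 0.56 to 0.85 with 1 array left out. The reserve median of 0.0045 was -0.16 with tied probe sets left out. The class difference of 0.62 was 0.83 and 0.79 under these 2 settings and 0.56 to 0.84 with 1 array left out. It stayed above 0 in all 14 alternatives, but some of them are no check on it. Median centring, the 40th percentile filter, trend and robust settings and 1 probe set per gene kept it at 0.62. These settings do not alter the gaps between the brightest probe sets of the members. Over the whole array 4139 probe sets were called, 2224 with shared targets left out and 0 to 3424 with 1 array left out. The 0 came without wild type 62, with 6682 at an unadjusted p under 0.05. No paired analysis was possible because the groups share no replicate numbers.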
